A study of Mus musculus with 24 samples.

Results

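The response of gastrocnemius muscle to hindlimb unloading was measured in mice bred to lack Notch2 in muscle fibres. The comparison takes the 4 libraries labelled Notch2-mKO and unloading against the 4 labelled Notch2-mKO and control, 8 of the 24 RNA sequencing libraries of the series. All 8 came from the gastrocnemius, the large calf muscle, of C57BL/6 mice that carried floxed Notch2 alleles and a Cre recombinase placed in the Mlc1f locus (Mlc1fCre/+;Notch2f/f). Mlc1f encodes a myosin light chain of muscle fibres, so Cre acts in fibres and leaves Notch2 in the vessel, nerve and connective tissue cells of the same muscle. The unloaded mice were kept in hindlimb suspension for 7 days, so that the hindlimbs bore no weight, and the control mice were not. The ages of the mice are not given in the labels. The other libraries came from Notch2f/f mice without Cre (WT) and from mice given streptozotocin. Only the WT control and WT unloading groups, 4 libraries each, are compared below, to ask whether the response differs between the genotypes. The libraries from mice given streptozotocin also entered the fit to all 24 libraries, and so the gene filter and the estimate of spread. Whether the replicates of a group are different mice is not stated in the labels, and the p-values rest on the spread among these libraries, part of which may be technical.

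A muscle that no longer bears weight loses mass within days. Protein synthesis slows, while the ubiquitin-proteasome system and autophagy break proteins down. Ligases attach ubiquitin to proteins, the 19S cap of the proteasome recognises and unfolds them, and its 20S core cuts them. Notch receptors are cleaved after binding a ligand on a neighbouring cell, and the released intracellular part acts in the nucleus with Rbpj. In adult muscle Notch signalling is best known for keeping satellite cells quiescent and for its roles in blood vessels.

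The 8 libraries held 34661368 to 53899363 estimated counts, with 14226 to 14722 gene models above 0. Levels are given as CPM, counts scaled to a common library size by TMM. In the shallowest library 3 counts correspond to 0.0866 CPM, reckoned on its total count without TMM scaling. Differences are log2 fold changes of unloading over control from edgeR's quasi-likelihood fit to all 24 libraries. A gene was called when its p-value, adjusted over the 13048 genes tested, was below 0.05. Gene positions are from GENCODE M21 on build GRCm38 (mm10). Notch2 (chromosome 3, 98013527 to 98150361, plus strand) was at 2.12, 1.25, 1.55 and 2.55 CPM in the controls and at 1.47, 1.38, 1.58 and 1.29 CPM after unloading. These groups overlapped (log2 fold change -0.38, adjusted p = 0.331). The counts cover the whole gene in every cell type, so they do not check the deletion. The genes that mark fast fibres dominated every library: the summed level of 12 of them was 333306 to 371076 CPM in the controls and 335199 to 351781 CPM in unloading replicates 2, 3 and 4, but 198130 CPM in unloading replicate 1. Unloading replicates 1 and 4 also stood apart from the rest across all genes, with quality weights of 0.382 and 0.420 against 1.33 and 1.31 for replicates 2 and 3. For this reason the libraries without which a call or a count changed are named with many of the results below. In whole muscle, fewer cells of a type and less RNA per cell cannot be told apart.

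At this threshold 954 genes were called, 7.31% of those tested. Of these 536 were higher after unloading (4.11%) and 418 were lower (3.2%), and 76 of the higher and 87 of the lower genes changed by more than 2-fold. Each count of list members below is to be read beside these shares of all genes tested. The median log2 fold change over all genes tested was 0.02, and the median size of the change among called genes was 0.63. In 779 of the called genes the 4 unloaded and 4 control libraries did not overlap, which was so for 1649 of all genes tested (12.6%). With upper quartile scaling the split was 435 higher and 547 lower, and with library totals alone, which moved the median of all genes to 0.12, it was 549 higher and 220 lower. In a fit on the 8 Notch2-mKO libraries alone, without the other groups, 331 genes were called. Leaving out control replicates 2, 3 and 4 in turn lowered the number called to 411, 504 and 439, and leaving out unloading replicates 2 and 4 lowered it to 610 and 570. Without unloading replicates 1 and 4 together, a choice made after seeing that they stood apart, 80 genes were called. For most gene lists described below, 0 or 1 member was then called, and for the tendon list 3 were. In all 8 fits with a Notch2-mKO library left out in turn, the same 245 genes were called. The balance of AT-rich and GC-rich genes differed between libraries. For 1289 AT-rich genes (below 42% GC) the mean log2 level, each gene centred over the 24 libraries, was set against that for 2610 GC-rich genes (above 56%). AT-rich minus GC-rich was -0.323 ± 0.275 in the controls and 0.0264 ± 0.222 after unloading (SD, n = 4). This difference of 0.349 had an exact two-sided permutation p of 0.0857, where the smallest possible with 4 against 4 is 0.0286. After removal of the trend with GC content and gene length from each library, 581 genes were higher and 414 lower, and 716 of the 954 calls were shared.

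**Figure D1:**
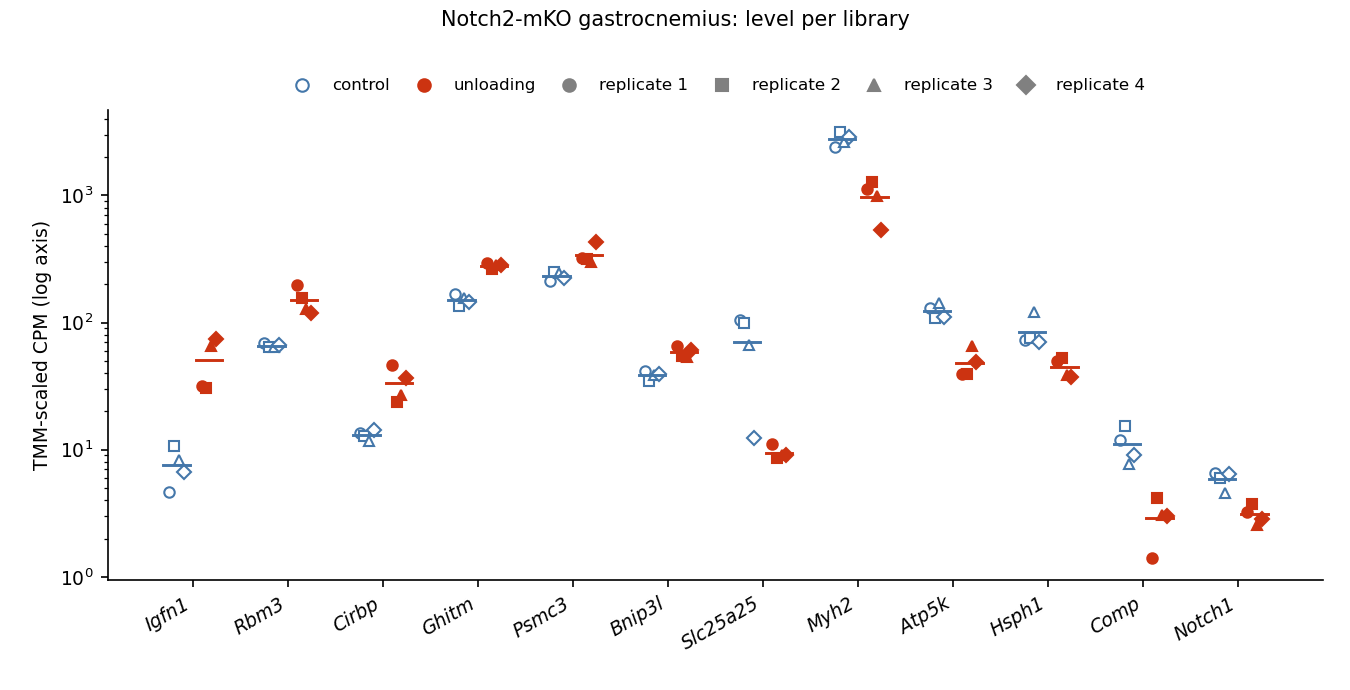
Level of 12 genes in each Notch2-mKO library, in TMM-scaled CPM on a log axis; open blue symbols are controls, filled red symbols are unloaded muscle, the symbol shape gives the replicate and each bar the mean of 4. For all 12 genes the control and unloaded libraries do not overlap, and Slc25a25 in control replicate 4 (12.3 CPM) lies close to the unloaded libraries. The genes shown were picked with their values known, so the lack of overlap is not a separate result. It held for 12.6% of all genes tested.

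The 15 largest rises among genes that averaged 2 CPM or more and did not overlap between the groups ran from Igfn1 (log2 2.74) to Rbm3 (1.20), and the 15 largest falls from Actc1 (-2.92) to Slc7a8 (-1.43), an amino acid transporter gene that lost its call without control replicate 2 or 3 or unloading replicate 1 or 4. Of these, 8 rises and 9 falls were called in all 8 fits with a library left out. The lack of overlap in these genes was a condition of their choice, not a separate result. The rises among the 8 that belong to none of the groups described below were Tmem184c, a membrane protein gene, Mir22hg, the host transcript of a microRNA, and Camk2n2, an inhibitor of the calcium-dependent kinase CaMKII. Tmem184c was at 3.44, 2.36, 1.43 and 2.73 CPM in the controls and at 7.60, 8.80, 9.01 and 7.71 CPM after unloading (log2 1.73, adjusted p = 0.00076), and Camk2n2 was at 0.932 to 1.502 and 2.43 to 3.80 CPM (log2 1.26, adjusted p = 0.00914). Rangrf, which binds the nuclear transport protein Ran, changed with little spread, from 45.0 ± 2.79 to 23.8 ± 3.45 CPM (SD, n = 4; log2 -0.92, adjusted p = 0.000439). Rangrf, Fbxo9, Ghitm and Pank2 were named because their p-values were among the 10 smallest, a choice made after their values were seen.

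In the contractile apparatus a Z-disc gene rose, and actin and myosin genes fell. Igfn1 (chromosome 1, 135953578 to 136006342, minus strand), which encodes a Z-disc protein with immunoglobulin and fibronectin domains, was at 4.64, 10.7, 8.24 and 6.71 CPM in the controls and at 31.9, 30.5, 65.3 and 74.1 CPM after unloading. All 4 unloaded libraries lay above all controls, which its choice required. The rise was 6.67-fold (log2 2.74, SE 0.381, adjusted p = 0.000376). Actc1, the cardiac actin gene that fibres use during development, was at 409.7, 288, 355 and 1081 CPM in the controls and at 23.3, 58.2, 111 and 88.9 CPM after unloading. Control replicate 4 was far above the other controls, and every control was above every unloaded library (log2 fold change -2.92, SE 0.660, adjusted p = 0.011). Without that control the log2 fold change was -2.33, and the call was kept (adjusted p = 0.0445). Acta1, the skeletal actin gene, took up 5.32 ± 0.382% of all scaled counts in the controls and 3.18 ± 0.735% after unloading, and also fell (log2 -0.74, adjusted p = 0.00782). Myh4, the heavy chain of type IIB fibres, had 8.67 ± 0.605% against 7.57 ± 2.50% and was not called (adjusted p = 0.543).

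Among the myosins, Myh2 (chromosome 11, 67171027 to 67197517, plus strand), the heavy chain of type IIA fast oxidative fibres, was at 2407, 3170.0, 2635 and 2894 CPM in the controls. After unloading it was at 1114, 1277, 985 and 535 CPM, below every control and lowest in replicate 4. Its log2 fold change was -1.51 (SE 0.211, adjusted p = 0.000376). Myl3, the essential light chain of slow fibres, was at 378 to 433 CPM in the controls and at 94.8 to 216 CPM after unloading (log2 -1.40, adjusted p = 0.00622). Ckmt2, the mitochondrial creatine kinase of oxidative fibres, fell with them (log2 -1.04, adjusted p = 0.0139). The slow heavy chain Myh7 was not called, with 529, 426, 358 and 488 CPM in the controls and 481, 603, 389.5 and 139 CPM after unloading, a log2 fold change of -0.16 with a 95% interval of -0.92 to 0.60. Myh1, of type IIX fibres, was not called either (log2 0.22, interval -0.13 to 0.57). Of 26 fibre-type genes, 4 fell and 0 rose, where 3.2% of all genes fell, with a median log2 fold change of -0.36. Beside Myh2, Myl3 and Ckmt2 this was Myh3, the embryonic heavy chain (log2 -1.69, adjusted p = 0.0246), whose call was lost without control replicate 2 or unloading replicate 2 or 4 (adjusted p = 0.0588, 0.0564 and 0.0613). Of 8 slow-fibre markers, Myl3 alone was called, and their summed level was lowest in unloading replicate 4 at 479.9 CPM, against 1416 to 1730 CPM in the controls.

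Of 31 genes of the Z-disc and of the costameres that tie it to the membrane, 3 rose and 4 fell. Among all genes tested, 4.11% rose and 3.2% fell. Beside Igfn1 and Actc1, Pdlim1, which binds alpha-actinin, fell from 31.9 ± 3.22 to 19.6 ± 4.25 CPM (SD, n = 4; log2 -0.70, adjusted p = 0.00759). Pdlim3 (log2 0.55) and Mustn1 (1.29), the other members that rose, lost their calls without any 1 of the controls or without unloading replicate 1 or 4, and Pdlim3 also without unloading replicate 2. With a control left out, Igfn1 was the 1 member that rose. Mustn1, a small muscle gene first described in regenerating tissue, was at 127, 43.9, 38.3 and 60.2 CPM after unloading against 24.01 to 32.4 CPM in the controls, highest in unloading replicate 1. Fhl2, a LIM protein that binds titin, was the remaining member that fell (log2 -1.12, adjusted p = 0.048), beside Actc1, Pdlim1 and Cryab. It lost its call without control replicate 2, 3 or 4 or unloading replicate 1, 2 or 4, and with the GC and length trend removed (adjusted p = 0.0551). Ankrd1, a stretch-responsive titin partner, was at 30.6, 11.4, 3.36 and 5.64 CPM in the unloaded libraries against 2.78 to 5.16 CPM in the controls, so that its value (log2 1.72, adjusted p = 0.0581) rests mostly on replicate 1. It was called without unloading replicate 3 (adjusted p = 0.024) and was at log2 0.81 without replicate 1 (adjusted p = 0.359). Ankrd2, its slow-fibre relative, was at 111 to 136 CPM in the controls and 54.1 to 78.4 CPM after unloading, without overlap, but was not called (log2 -0.85, adjusted p = 0.229).

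The smallest p-value of the whole comparison belonged to Rbm3, and with Cirbp it forms a pair of RNA-binding proteins known from cells kept below body temperature. Rbm3 (chromosome X, 8138975 to 8145880, minus strand) was at 68.8, 63.8, 64.1 and 66.3 CPM in the controls, with little spread, and at 198.6, 157, 129 and 119.7 CPM after unloading. Its rise was 2.30-fold (log2 1.20, SE 0.137, adjusted p = 5.42e-05). Cirbp (chromosome 10, 80165985 to 80172786, plus strand) was at 13.6, 12.7, 11.7 and 14.3 CPM in the controls and at 46.6, 23.8, 26.8 and 36.9 CPM after unloading (log2 1.36, SE 0.211, adjusted p = 0.00083). Both genes were higher in all 4 unloaded libraries than in any control, which the rule for the largest rises required. Both calls were kept with any Notch2-mKO library left out and with the GC and length trend removed (log2 0.96 and 1.41). Body and muscle temperature are not given in the labels.

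Cytosolic chaperones fold proteins, and many are induced by heat through heat shock elements in their promoters. Of 30 tested, 7 fell and 0 rose, where 3.2% of all genes fell, with a median log2 fold change of -0.19. Hsph1, a nucleotide exchange factor of Hsp70, was at 72.9, 75.0, 120.1 and 70.03 CPM in the controls and at 50.0, 52.2, 38.6 and 37.6 CPM after unloading (log2 -0.92, SE 0.190, adjusted p = 0.00716). Cryab, the small chaperone of the Z-disc and of desmin, was at 489.8, 590.0, 693 and 475 CPM in the controls and at 412, 349.8, 291 and 216 CPM after unloading (log2 -0.83, SE 0.192, adjusted p = 0.013). Neither gene overlapped between the groups, and neither lost its call with a library left out. Hspa8, the constitutive Hsp70, was at 329.9, 927, 655 and 1196 CPM after unloading against 1349 to 1868 CPM in the controls (log2 -0.94, adjusted p = 0.0189, and 0.0568 without control replicate 3). The other 4 lost their calls with single libraries left out. Dnajb1 (log2 -0.81) did so without control replicate 1 or unloading replicate 1, Stip1 (-0.50) without control replicate 2 or 3 or unloading replicate 1, Hspa1a (-1.11) without any library but control replicate 1 and unloading replicate 1, and Dnaja1 (-0.40) without any but control replicate 2. Hspa1a, the heat-inducible Hsp70, has a near-identical copy, Hspa1b (log2 -0.61, adjusted p = 0.196), and reads may have been split between them. Hsp90aa1, the inducible Hsp90, and Hspb1 were not called (log2 -0.08, interval -0.48 to 0.32, and -0.12, interval -0.62 to 0.38), and both had positive values when scaled by library totals. Without control replicate 3, in which Hsph1, Cryab and Hspa8 were highest, 3 chaperones were called lower, without unloading replicate 1 there were 4, and without unloading replicates 1 and 4 together there was 1.

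The promoters of 3 of the chaperone genes called lower hold the core of a heat shock element, GAANNTTC or TTCNNGAA, in the 250 bases before the start of transcription. Each of these letter patterns reads the same on both strands. These 3 were chosen because they hold the match. The last 160 of those bases are shown with it, 5′ to 3′ on the strand of the gene, with the match in capitals. They were taken from RefSeq on build GRCm38.p6, at chr17:34972157-34972316 (minus strand) for Hspa1a, chr5:149636337-149636496 (minus) for Hsph1 and chr4:40722308-40722467 (plus) for Dnaja1.
Hspa1a: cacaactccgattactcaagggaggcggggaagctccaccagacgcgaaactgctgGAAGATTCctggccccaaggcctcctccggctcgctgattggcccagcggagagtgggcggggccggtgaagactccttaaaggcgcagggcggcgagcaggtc
Hsph1: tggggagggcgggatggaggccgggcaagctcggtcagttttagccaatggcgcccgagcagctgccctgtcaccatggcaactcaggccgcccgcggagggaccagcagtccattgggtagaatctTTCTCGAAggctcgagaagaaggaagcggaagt
Dnaja1: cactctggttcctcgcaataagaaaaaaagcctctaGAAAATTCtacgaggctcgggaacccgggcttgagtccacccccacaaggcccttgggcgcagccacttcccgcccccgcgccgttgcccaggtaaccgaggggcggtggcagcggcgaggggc
Of the 23 chaperone genes with a promoter in that table, 10 held a match (43.5%), as did 1268 of 10373 genes tested (12.2%), counting a gene when any of its listed starts had one. The other 7 with a match, among them Hspb1, Hspe1 and Hspd1, were not called. Of the other chaperones called lower, Dnajb1 and Stip1 held no match, and Hspa8 and Cryab had no promoter in the table. A match is a pattern of letters, not a measured binding site.

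Genes of both parts of the proteasome rose after unloading. All 14 genes of the 20S core had a positive log2 fold change, with a median of 0.35, and 5 rose. All 18 genes of the 19S cap were positive too, with a median of 0.47, and 8 rose, where 4.11% of all genes did. Psma7, an alpha subunit of the core, was at 93.1, 92.7, 105 and 88.4 CPM in the controls and at 227, 132, 135 and 210.2 CPM after unloading (log2 0.90, SE 0.197, adjusted p = 0.00952). Psmc3, one of the ATPases that unfold proteins in the cap, was at 212, 251, 246 and 224 CPM in the controls and at 319, 318, 300.1 and 431 CPM after unloading (log2 0.55, SE 0.129, adjusted p = 0.013). Psmc6, another of these ATPases, was at 41.4, 25.3, 28.8 and 28.3 CPM in the controls and at 69.2, 54.2, 46.8 and 55.8 CPM after unloading (log2 0.87, adjusted p = 0.00849, and 0.48 with the GC and length trend removed). For these 3 genes no unloaded library overlapped a control, and the calls were kept with any one library left out.

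The size of the proteasome rise differed between the unloaded libraries. Summed over the 20S genes, unloading replicates 1 and 4 stood at 165% and 139.5% of the control mean and replicates 2 and 3 at 106% and 113%, where the controls ran from 92.3% to 109.8%. For the 19S genes the 4 unloaded libraries stood at 153%, 126%, 119% and 184% in order of replicate number, all above the highest control at 108.7%. Leaving out control replicates 1, 2, 3 and 4 in turn left 3, 3, 3 and 1 of the 20S genes and 4, 3, 5 and 2 of the 19S genes called. Without unloading replicate 1 they were 1 and 5, and without unloading replicate 4 they were 3 and 3. The medians over the 2 lists stayed between 0.28 and 0.40 for the core and between 0.35 and 0.54 for the cap in these 8 fits. Without unloading replicates 1 and 4 together the medians were 0.16 and 0.25, and 0 genes of either list were called. A further list of 18 proteasome activators, immunosubunits and assembly factors had 10 positive and 8 negative values (median log2 0.03). Of these, 1 rose and 1 fell, where 4.11% of all genes rose and 3.2% fell. The 11S activator subunit Psme1 was lower (log2 -0.63, adjusted p = 0.0182), a call lost without control replicate 4 or unloading replicate 1 or 4. The assembly chaperone Psmg4 rose (0.60), a call lost without control replicate 1 or 2 or unloading replicate 1. The core pattern of the antioxidant response element, TGACNNNGC on either strand, stood in the 250 bases before the start in 2 of 11 core genes and 3 of 15 cap genes with a promoter, against 14.2% of all genes tested.

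Of 29 muscle ubiquitin ligase genes, 4 rose and 1 fell (median log2 0.18), where 4.11% of all genes rose and 3.2% fell. Park2, the mitochondrial ligase parkin, was at 2.66, 2.56, 2.62 and 3.05 CPM in the controls and at 4.08, 4.23, 5.15 and 4.39 CPM after unloading (log2 0.71, adjusted p = 0.00981). Cul1, the scaffold of the SCF ligases, was at 62.2, 47.0, 48.4 and 45.9 CPM in the controls and at 82.2, 78.1, 67.5 and 91.2 CPM after unloading (log2 0.65, adjusted p = 0.0125). Neither overlapped. Fbxo9, an F-box subunit that binds to such a scaffold and was not on that list, had 1 of the 10 smallest p-values of the comparison and rose from 11.9 ± 0.972 to 25.6 ± 6.06 CPM (SD, n = 4; log2 1.10, adjusted p = 0.000376). The best known atrophy ligase, Fbxo32 (atrogin-1), was at 124, 160.3, 156 and 214 CPM in the controls and at 150.5, 325, 190.1 and 1234 CPM after unloading. Trim63 (MuRF1) was at 191, 307, 219 and 237 CPM in the controls and at 133, 235, 183 and 822 CPM after unloading. In both genes unloading replicate 4 lay far above all other libraries, while replicate 1 lay inside or below the control range, and neither was called (adjusted p = 0.0832 and 0.484). Without replicate 4 the log2 fold changes were 0.44 and -0.38, and Fbxo32 passed when unloading replicate 3 was left out (adjusted p = 0.0482). Fbxo30, a ligase of the BMP-regulated atrophy programme, was at 1.97 to 5.39 CPM in the controls and 4.06 to 6.45 CPM after unloading and was not called (log2 0.41, interval -0.15 to 0.97). The other ligase genes called were Mdm2 (log2 0.54), the ligase of p53, which lost its call without control replicate 2, Cul3 (0.56) and Fbxl22 (-0.97), a Z-disc F-box protein. Cul3 and Fbxl22 were not called without control replicate 2 or 4 or unloading replicate 1 or 2, Fbxl22 also without unloading replicate 4, and Cul3 also with the GC and length trend removed (adjusted p = 0.0817). Without control replicate 2, the number of ligase genes that rose was 2.

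Autophagy genes rose in part. Of 27 tested, 5 rose and 0 fell, where 4.11% of all genes rose, and 25 were positive (median log2 0.22). Bnip3l, a receptor that marks mitochondria for removal, was at 41.5, 34.5, 38.7 and 39.2 CPM in the controls and at 64.9, 54.6, 53.9 and 60.5 CPM after unloading (log2 0.60, SE 0.119, adjusted p = 0.00592). Tax1bp1, which delivers ubiquitin-tagged cargo, was at 43.2, 30.05, 34.6 and 31.7 CPM in the controls and at 59.5, 59.8, 48.6 and 66.6 CPM after unloading (log2 0.75, SE 0.165, adjusted p = 0.00974). Neither gene overlapped between the groups. With the GC and length trend removed they stood at 0.40 and 0.57, and both were still called. Without control replicate 3 or 4, or without unloading replicate 2 or 4, 2 of the 5 autophagy genes were called, without control replicate 2 there were 3, and without unloading replicates 1 and 4 together there were 0. Cast, which encodes the calpain inhibitor calpastatin, rose as well (log2 0.61, adjusted p = 0.0115), but not with the trend removed (0.47, adjusted p = 0.0541).

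**Figure D2:**
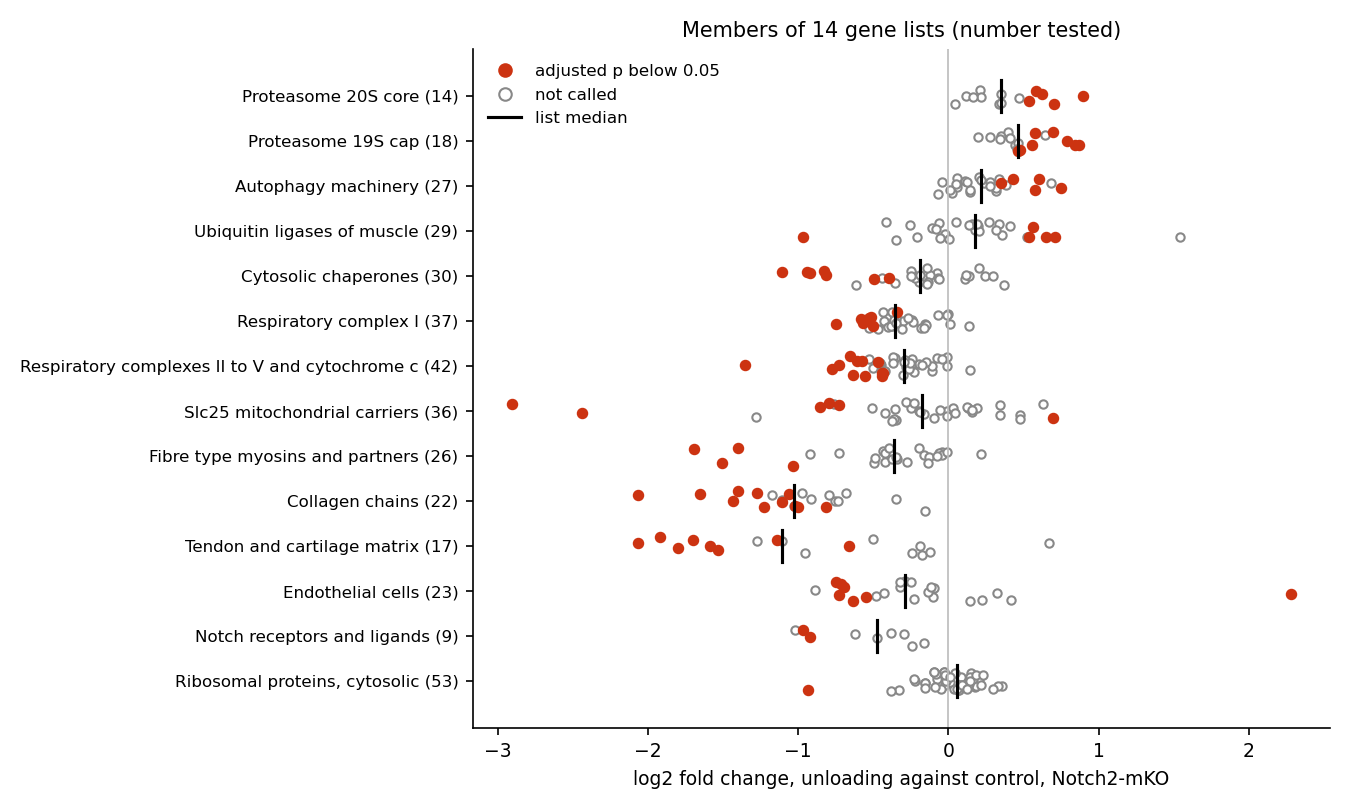
Log2 fold change with unloading of every tested member of 14 gene lists in Notch2-mKO muscle; filled points passed an adjusted p of 0.05 and the bar is the list's median. All proteasome members lie to the right of 0, all 22 collagen chains and all 9 Notch receptors and ligands to the left, and Rps29 is the 1 ribosomal protein gene of 53 that was called.

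Genes of mitochondrial carriers and of the respiratory chain fell after unloading. Slc25a25 (chromosome 2, 32414487 to 32451445, minus strand), which carries ATP-Mg and phosphate across the inner membrane, was at 105, 99.7, 66.4 and 12.3 CPM in the controls and at 11.1, 8.59, 9.15 and 9.02 CPM after unloading. Control replicate 4 sat near the unloaded level and the other 3 controls lay far above it (log2 fold change -2.91, SE 0.423, adjusted p = 0.000462). Without control replicate 4 the value was -3.27. Slc25a30, a carrier of less certain cargo, was at 1.73, 4.26, 7.41 and 1.63 CPM in the controls and at 1.04, 0.679, 0.565 and 0.485 CPM after unloading (log2 -2.44, adjusted p = 0.00831). Its controls split as well, with replicates 2 and 3 the highest. Slc25a5, an exchanger of ADP and ATP, fell from 34.1 ± 7.00 to 20.6 ± 1.92 CPM (SD, n = 4; log2 -0.73, adjusted p = 0.00908). Of 36 carriers of this family, 5 fell and 1 rose, and 3 fell without unloading replicate 1. Among all genes tested, 3.2% fell and 4.11% rose. Ghitm, an inner-membrane protein that shapes cristae, went the other way, with 166, 135, 155 and 146 CPM in the controls and 293, 263, 281 and 283 CPM after unloading (log2 0.89, SE 0.109, adjusted p = 9.15e-05).

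Of 37 genes of respiratory complex I, which takes electrons from NADH, 35 had negative log2 fold changes (median -0.36) and 7 fell. Of 42 genes of complexes II to V and cytochrome c, 41 were negative (median -0.30) and 12 fell, against 3.2% of all genes. None of the 79 rose. Atp5k, the e subunit of ATP synthase, was at 131, 108, 144 and 111 CPM in the controls and at 39.5, 39.3, 65.1 and 49.1 CPM after unloading (log2 -1.36, SE 0.190, adjusted p = 0.000376). Its fall was larger than those of the other subunits called with any library left out, which were the ATP synthase ring genes Atp5g3 (log2 -0.73) and Atp5g1 (-0.58), Sdhb of complex II (-0.66), Uqcrh of complex III (-0.61) and Ndufc1 of complex I (-0.75). For Sdhb the controls were at 406, 418, 418 and 392 CPM and the unloaded libraries at 184, 246, 315 and 292 CPM, lowest in replicate 1. Summed over complexes II to V, the unloaded libraries stood at 63.0%, 83.9%, 93.0% and 88.6% of the control mean in order of replicate number, and the lowest control stood at 95.7%. Without unloading replicate 1, 1 complex I gene and 6 genes of the other complexes were called, and without control replicate 3 these were 1 and 5. Without control replicate 4, unloading replicate 2 or unloading replicate 4 complex I had 3 calls, and without unloading replicate 3 it had 16. Without unloading replicates 1 and 4 together, complex I had 0 calls and the other complexes 1.

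Some genes that direct fuel use were called, in both directions. Ppara, the nuclear receptor for fatty acids that drives their oxidation, was at 17.6, 31.1, 21.3 and 10.2 CPM in the controls and at 7.02, 10.1, 8.72 and 9.63 CPM after unloading (log2 -1.18, SE 0.227, adjusted p = 0.00507). Control replicate 4 lay only just above the unloaded libraries. Of 33 genes of fatty acid uptake and oxidation, 2 fell and 0 rose, where 3.2% of all genes fell. Fabp3, which carries fatty acids in the cytosol, was at 279, 338, 357 and 323 CPM in the controls and at 149.9, 168, 175 and 201 CPM after unloading (log2 -0.90, adjusted p = 0.00095). Acaa2, the last enzyme of a turn of mitochondrial beta-oxidation, was the other (log2 -0.72, adjusted p = 0.0101). Ppargc1a, the coactivator PGC-1alpha that drives mitochondrial growth, was not called, with a log2 fold change of -0.26 and an interval of -0.69 to 0.18. Ppp1r3c, which brings a phosphatase to glycogen and so favours its storage, was at 171, 919.7, 1298 and 277 CPM in the controls and at 144, 159, 78.5 and 134 CPM after unloading. Its fall (log2 -2.37, adjusted p = 0.0169) rests on control replicates 2 and 3, and without the latter it was not called (adjusted p = 0.0657). Nrf1, a transcription factor of nuclear genes for mitochondria, rose (log2 0.53), a call lost without any 1 control or without unloading replicate 1 or 4. Epm2a, the glycogen phosphatase laforin, rose (log2 0.48), a call lost without control replicate 2, 3 or 4 or unloading replicate 1 or 2. Pdha1, a subunit of pyruvate dehydrogenase, rose (log2 0.42), a call lost without control replicate 2, 3 or 4 or unloading replicate 2, 3 or 4, and with the GC and length trend removed (adjusted p = 0.0541). Pank2, which starts coenzyme A synthesis in mitochondria, rose from 12.1 ± 0.622 to 20.7 ± 2.28 CPM (SD, n = 4; log2 0.77, adjusted p = 0.000462).

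Collagen genes and tendon genes had the lowest medians of the 49 gene lists. All 22 collagen chains tested had negative log2 fold changes, with a median of -1.03, and 11 fell, where 3.2% of all genes did. Col1a1 (chromosome 11, 94936224 to 94953042, plus strand), the main chain of fibrillar collagen, was at 159, 133, 122 and 250.1 CPM in the controls and at 41.7, 38.9, 80.3 and 50.1 CPM after unloading (log2 -1.65, SE 0.423, adjusted p = 0.0207). All controls lay above all unloaded libraries, control replicate 4 the furthest. The call was lost without control replicate 4 (adjusted p = 0.0719) and without unloading replicate 1, 2 or 4 (0.0541, 0.0575 and 0.0503). Col11a1, which starts thin fibrils in tendon and cartilage, was at 2.17, 2.10, 1.26 and 2.33 CPM in the controls and at 0.226, 0.522, 0.723 and 0.405 CPM after unloading (log2 -2.06, adjusted p = 0.00656). Col16a1, a fibril-associated chain, was at 4.09, 3.08, 2.25 and 3.23 CPM in the controls and at 1.20, 1.28, 1.54 and 1.396 CPM after unloading (log2 -1.23, adjusted p = 0.00656). These 2 kept their calls in every fit with a Notch2-mKO library left out. The number of collagen chains called was 2 without control replicate 4, 4 without unloading replicate 1 or 2 and 5 without unloading replicate 4, with medians between -0.71 and -1.20 in the 8 such fits. Without unloading replicates 1 and 4 together 0 were called, with a median of -0.92. Serpinh1, the chaperone that folds procollagen, was at 46.6, 60.8, 54.7 and 72.8 CPM in the controls and at 32.8, 22.8, 40.7 and 28.4 CPM after unloading (log2 -0.91, adjusted p = 0.00662). Emilin1, a glycoprotein of elastic fibres, fell too (log2 -1.14, adjusted p = 0.00342), 1 of 7 that did so among 26 matrix proteoglycans and glycoproteins. Agrn, the heparan sulphate proteoglycan that organises the neuromuscular junction, was another (log2 -0.95, adjusted p = 0.0129, and 0.0625 without control replicate 4). The 7 calls became 1 without control replicate 4, 3 without unloading replicate 1 or 4, and 4 without control replicate 2 or unloading replicate 2.

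Of 17 genes typical of tendon and cartilage, 8 fell and 0 rose (median log2 -1.11), where 3.2% of all genes fell. Comp (chromosome 8, 70373558 to 70382066, plus strand), which bridges collagen fibrils, was at 11.8, 15.4, 7.65 and 9.14 CPM in the controls and at 1.399, 4.15, 3.07 and 3.03 CPM after unloading (log2 -1.92, SE 0.304, adjusted p = 0.00095). Its relative Thbs4 was at 66.2, 94.0, 92.2 and 69.5 CPM in the controls and at 24.5, 43.3, 45.9 and 32.1 CPM after unloading (log2 -1.14, SE 0.171, adjusted p = 0.00061). Both genes were lowest in unloading replicate 1, and neither overlapped. The collagen-binding proteins Fmod (log2 -1.58) and Chad (-1.80), the tendon membrane protein Tnmd (-1.53) and the glycoprotein Tnxb (-0.66) also kept their calls with any library left out, but Tnxb was not called with the GC and length trend removed (adjusted p = 0.0505). Scx, the transcription factor that defines tendon cells, was not called, with 5.69 to 8.004 CPM in the controls and 18.7, 10.8, 7.38 and 7.71 CPM after unloading (log2 0.67, adjusted p = 0.151). Summed over this list, the unloaded libraries stood at 35.8%, 49.4%, 54.4% and 47.2% of the control mean and the lowest control at 88.6%. The count of calls was 7 to 9 in the fits with a library left out, and 3 without unloading replicates 1 and 4 together. Of 12 general fibroblast markers, 0 rose and 1 fell, where 3.2% of all genes fell. This was Ly6a (log2 -0.44), a call lost without control replicate 3 or 4 or unloading replicate 2 or 4. The summed level of the 12 markers was 851 to 1275 CPM in the controls and 766 to 1243 CPM after unloading, and none was at 0. Pdgfra had a log2 fold change of -0.05 (interval -0.34 to 0.25), positive when scaled by library totals, and Dcn of 0.18 (-0.18 to 0.54), below 0 with the GC and length trend removed. How much tendon each sample carried is not given in the labels, and its part in these falls was not tested.

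**Figure D3:**
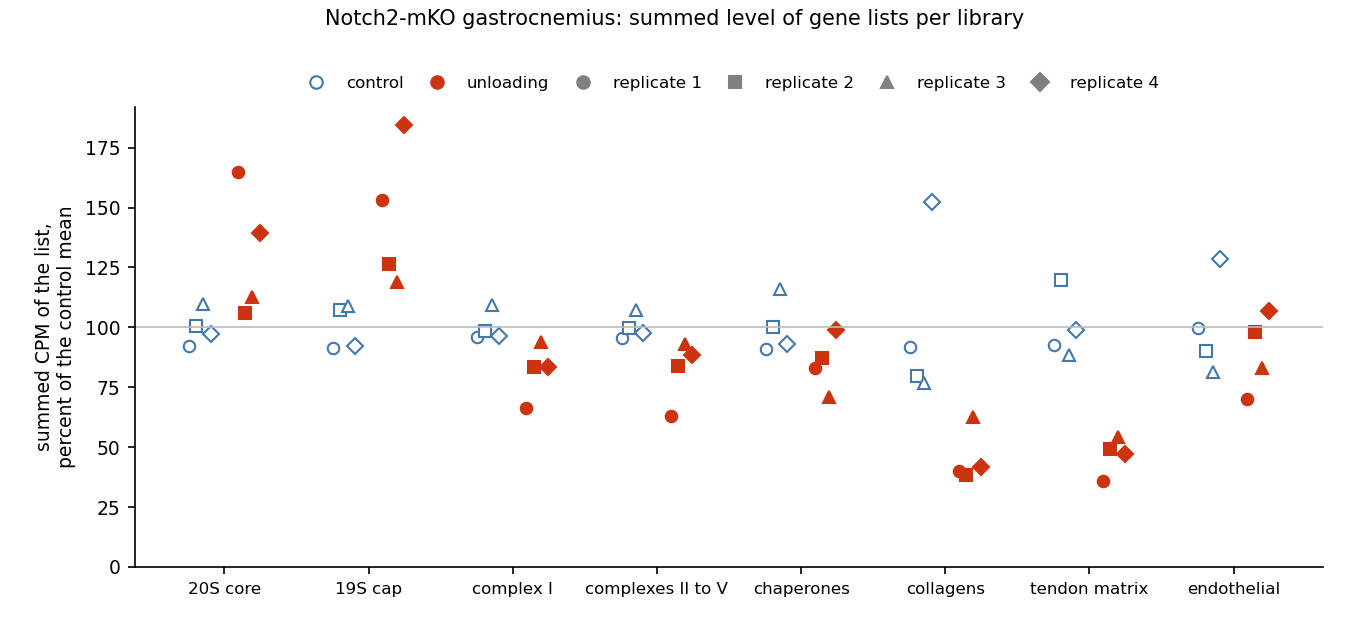
Summed CPM of 8 gene lists in each Notch2-mKO library as a percent of the control mean, with the axis from 0; open blue symbols are controls, filled red symbols are unloaded muscle and the shape gives the replicate. Tendon and collagen sums of the unloaded libraries lie below all controls, proteasome sums are highest in unloading replicates 1 and 4, and endothelial sums overlap.

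Of the 4 Notch receptors, Notch1 and Notch4 fell. All 9 receptors and ligands had negative log2 fold changes (median -0.48), and 2 fell, where 3.2% of all genes did. Notch1 (chromosome 2, 26457903 to 26516663, minus strand) was at 6.52, 5.97, 4.53 and 6.39 CPM in the controls and at 3.23, 3.76, 2.55 and 2.83 CPM after unloading (log2 -0.92, SE 0.192, adjusted p = 0.00758). Notch4 (chromosome 17, 34564268 to 34588503, plus strand), a receptor of endothelial cells, was at 9.34, 15.003, 11.4 and 9.62 CPM in the controls and at 4.08, 6.79, 5.55 and 6.72 CPM after unloading (log2 -0.97, SE 0.201, adjusted p = 0.00743). Neither overlapped between the groups or lost its call with a library left out. Notch3, the receptor of vascular smooth muscle, was at 23.8, 25.2, 15.7 and 31.5 CPM in the controls and at 15.5, 15.8, 14.7 and 16.5 CPM after unloading and was not called (log2 -0.62, adjusted p = 0.055). It was called without control replicate 3 (0.0253), with upper quartile scaling, with DESeq2 and with a filter at a mean of 2 CPM. Without unloading replicates 1 and 4 together 0 of the receptors and ligands were called. The ligands Dll4 (log2 -0.48, interval -0.98 to 0.03), Jag1 (-0.30, -0.90 to 0.30) and Jag2 (-0.24, -0.46 to -0.02) were not called. Of 28 genes that process Notch or answer to it, 1 rose and 0 fell, where 4.11% of all genes rose and 3.2% fell. The riser was Numbl, of the Numb family of Notch inhibitors (log2 0.81, adjusted p = 0.0262), a call lost without control replicate 2, 3 or 4 or unloading replicate 4 (adjusted p = 0.073, 0.0748, 0.0509 and 0.0923). The target genes Hes1 (log2 0.17, interval -0.29 to 0.63), Hey1 (-0.30, -0.76 to 0.15) and Heyl (-0.08, -0.67 to 0.51) were not called.

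Some endothelial genes fell as well. Of 23 endothelial markers, 6 fell and 1 rose (median log2 -0.29), where 3.2% of all genes fell and 4.11% rose. Nos3, the nitric oxide synthase of vessels, was at 6.50, 8.59, 7.36 and 9.87 CPM in the controls and at 4.47, 5.04, 5.10 and 4.65 CPM after unloading (log2 -0.75, adjusted p = 0.00735). Eng, a co-receptor for BMP ligands, was at 35.0, 42.7, 35.5 and 46.2 CPM in the controls and at 23.2, 29.3, 26.5 and 23.7 CPM after unloading (log2 -0.64, adjusted p = 0.00427). Vwf (-0.70) and Robo4 (-0.73) also fell in every fit with a library left out. The junction genes that define the cell type were not called: Pecam1 had a log2 fold change of -0.10 (interval -0.43 to 0.24) and Cdh5 of -0.32 (-0.71 to 0.06). The summed level of the 23 markers was 406 to 641 CPM in the controls and 350 to 532 CPM after unloading, none was at 0, and its part in the Notch receptor values was not tested. Tmem100 (chromosome 11, 90030348 to 90036508, plus strand), an endothelial membrane protein gene that answers to BMP signalling, was the member that rose, 4.86-fold. It was at 4.96, 10.1, 17.5 and 9.67 CPM in the controls and at 20.96, 70.01, 26.4 and 87.4 CPM after unloading (log2 2.28, SE 0.460, adjusted p = 0.00656).

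Among stress, growth, clock and nerve-related genes, most members of each list were not called. Ppp1r15a, which restores translation after the integrated stress response, was at 12.0, 9.45, 11.9 and 15.1 CPM in the controls and at 18.5, 29.2, 25.5 and 111 CPM after unloading (log2 1.93, adjusted p = 0.0125). Its 4 unloaded libraries all lay above the controls, yet the size rests on replicate 4, without which it was 1.01 (adjusted p = 0.0905). Mthfd2, a mitochondrial folate enzyme induced by the same response, rose (log2 1.06, adjusted p = 0.0129) and also lost its call without that library (adjusted p = 0.0547), which left 0 of the 31 genes of this list called. Without control replicate 2, 3 or 4 there were 2, and with all libraries 4, all higher, where 4.11% of all genes rose. Eif4ebp1, the inhibitor of translation initiation that mTORC1 switches off, was at 46.2, 51.4, 47.9 and 45.5 CPM in the controls and at 88.6, 72.6, 73.0 and 244 CPM after unloading (log2 1.32, adjusted p = 0.047), and without unloading replicate 4 it stood at log2 0.70 (adjusted p = 0.269). Its call was also lost without any 1 control (adjusted p = 0.0764 to 0.105) and without unloading replicate 1 (0.0524), and with the GC and length trend removed (0.0536). Ddit4, an inhibitor of mTORC1, was at 54.6, 91.7, 27.3 and 8.64 CPM in the controls and at 4.47, 15.2, 5.04 and 19.5 CPM after unloading, with control replicate 4 inside the unloaded range (log2 -2.05, adjusted p = 0.0246). It was not called without control replicate 2 or unloading replicate 1 or 3 (adjusted p = 0.109, 0.0652 and 0.0525).

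Nfil3, a clock repressor, was at 14.3, 46.4, 36.5 and 18.1 CPM in the controls and at 11.4, 9.79, 11.1 and 15.01 CPM after unloading (log2 -1.29, adjusted p = 0.0168, and 0.073 without control replicate 2). Unloading replicate 4 overlapped the controls. Of 17 clock genes tested, 1 rose and 1, Nfil3, fell, where 4.11% of all genes rose and 3.2% fell. The other members were not called, and the time of day of sampling is not given in the labels.

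Chrnb1, a subunit of the acetylcholine receptor, was at 13.5, 18.0, 16.4 and 14.4 CPM in the controls and at 22.9, 31.7, 24.3 and 24.2 CPM after unloading (log2 0.73, adjusted p = 0.0191, but 0.0584 without control replicate 4 and 0.0681 without unloading replicate 2). Myog, the regulator that rises after denervation, was not called (log2 0.04, interval -0.54 to 0.62). Of 26 genes of the neuromuscular junction and of denervation, 2 rose and 2 fell, where 4.11% of all genes rose and 3.2% fell. Runx1, a transcription factor induced by denervation, was the other that rose, at 0.607, 0.744, 0.436 and 0.651 CPM in the controls and at 3.97, 1.15, 1.02 and 1.396 CPM after unloading (log2 1.62, adjusted p = 0.0306). Its call was lost without any 1 control or without unloading replicate 1, where it stood at 0.95 (adjusted p = 0.168). Xpa, which recognises damaged DNA, rose from 3.15 ± 0.269 to 8.14 ± 2.72 CPM (SD, n = 4; log2 1.37, adjusted p = 0.00342). Ribosomal protein genes have many near-identical pseudogenes, and the counting may have split reads between them. Among 53, Rps29 alone was called, at 171, 150.4, 182 and 157 CPM in the controls and 99.2, 73.6, 99.8 and 73.4 CPM after unloading (log2 -0.93, adjusted p = 0.00156).

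Of 14 macrophage markers 0 were called by edgeR, where 7.31% of all genes were. Their summed levels were 57.1 to 94.2 CPM in the controls and 61.2 to 94.0 CPM after unloading. Of 14 neutrophil and lymphocyte markers 2 passed the filter on low counts and neither was called, with sums of 0.484 to 3.67 and 0.809 to 1.65 CPM, and Ly6g and Cd3d were listed at 0 in all 8 libraries. Of 11 tested pericyte and smooth muscle markers 0 were called by edgeR, and 2 with upper quartile scaling or without control replicate 3. Acta2, the smooth muscle actin of vessel walls, was listed at 0 in all 8 libraries, which may be a failed estimate in the deposited counts, so this 0 is not read as absence. Haemoglobin and other red cell markers summed to 224 to 464 CPM in the controls and to 358, 1067, 870 and 306 CPM in the unloaded libraries, with none called.

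Most genes called in Notch2-mKO muscle were also called in WT muscle, and no gene's response differed between the genotypes by edgeR's test of that difference. In WT muscle unloading called 4522 genes (34.7%), 18.4% of those tested higher and 16.3% lower. Of the 954 genes called in Notch2-mKO muscle, 794 were called in WT too, all with the same sign. That is 83.2% of the Notch2-mKO calls and 17.6% of the WT calls. Of the other 160 genes, 144 had the same sign in WT. Over all genes tested the log2 fold changes of the 2 genotypes, which share no library, had a Pearson correlation of 0.61 across genes (0.60 with the GC and length trend removed), and genes are not independent replicates. The test of the difference called 0 of 13048 genes (0%; edgeR), with a smallest adjusted p of 0.0943 and 1875 genes at an unadjusted p below 0.05. DESeq2 called 127 genes, 21 with a higher and 106 with a lower value in Notch2-mKO muscle, and limma voom with library weights called 113. Leaving out WT control replicate 4 gave 427 such genes by edgeR, leaving out WT unloading replicate 4 gave 12, and leaving out Notch2-mKO control replicate 4 or unloading replicate 2 gave 1 each. On the AT-rich minus GC-rich measure, WT controls ran from -0.984 to -0.189 and WT unloaded libraries from 0.367 to 0.535, without overlap, where the Notch2-mKO groups overlapped. With the GC and length trend removed from each library, 3421 genes were called in WT muscle and 995 in Notch2-mKO muscle. Beyond these counts, the part of this measure in the larger number of WT calls was not tested. With that trend removed, 1048 genes had an unadjusted p below 0.05 for the difference.

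**Figure D4:**
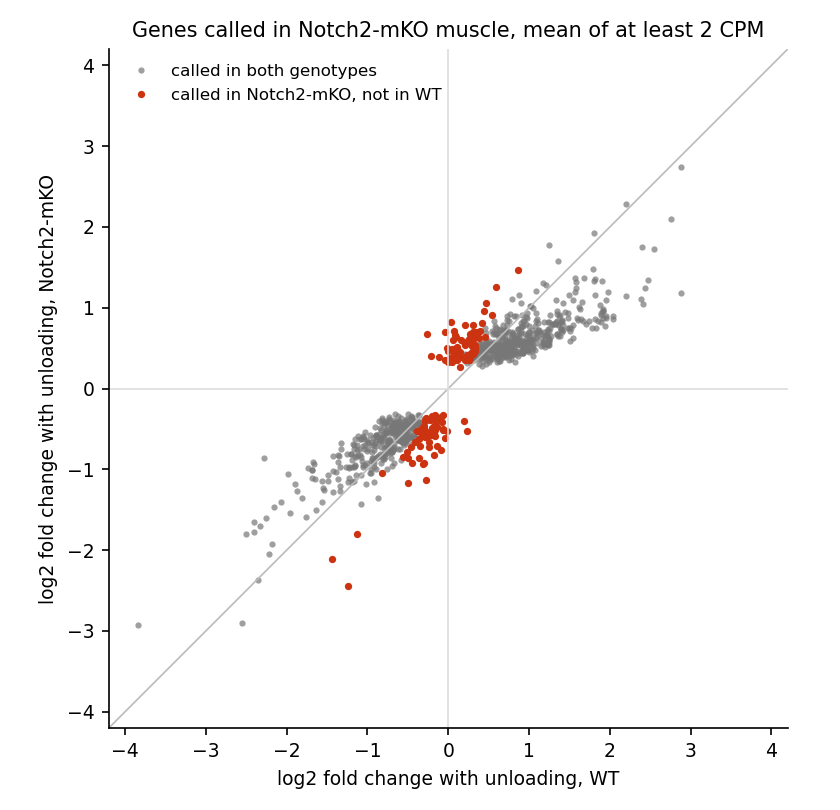
Log2 fold change with unloading in Notch2-mKO muscle against that in WT muscle for the 871 of 954 genes called in Notch2-mKO muscle with a mean of at least 2 CPM; grey points (743) were called in both genotypes, red points (128) in Notch2-mKO alone, and the diagonal marks equal change. The grey points share their sign in both genotypes.

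WT values are given here for a few of the genes described above. Other genes and lists were not all alike in both genotypes. Igfn1 had a log2 fold change of 2.88 in WT muscle, and the difference, Notch2-mKO minus WT, was -0.14 (interval -1.20 to 0.91). For Rbm3 the WT value was 1.57 and the difference -0.37 (-0.77 to 0.02). For Myh2 they were -1.64 and 0.14 (-0.46 to 0.74), and for Comp -2.18 and 0.26 (-0.61 to 1.13). None of these intervals left out 0. Notch1, with -0.45 in WT muscle (adjusted p = 0.0692), was not called there, but its difference of -0.47 (-1.03 to 0.08) did not pass (adjusted p = 0.439). Rps29 stood at -0.31 in WT muscle with a difference of -0.63 (-1.07 to -0.18, adjusted p = 0.203).

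Genes with the smallest p of the difference, among those that averaged 2 CPM or more, included Mtm1, Alox5ap, Tkt, Rnmt, Dek, Lrfn3, Dap, Skp1a and Paip2b, with adjusted p between 0.0943 and 0.122. Tkt, the transketolase of the pentose phosphate pathway, was called in Notch2-mKO muscle and not in WT. It was at 13.7, 17.0, 15.9 and 15.8 CPM in the Notch2-mKO controls and at 28.2, 19.3, 27.0 and 24.8 CPM after unloading (log2 0.67, adjusted p = 0.00467). In WT it was at 19.9, 20.98, 17.4 and 17.1 CPM in the controls and at 17.7, 14.5, 13.8 and 16.8 CPM after unloading (log2 -0.27, adjusted p = 0.109). The difference was 0.94 (0.56 to 1.31). Mtm1, the myotubularin phosphatase, was at 7.60, 4.81, 4.48 and 3.93 CPM in the Notch2-mKO controls and at 7.04, 6.58, 6.37 and 5.77 CPM after unloading. In WT it was at 2.40, 3.25, 2.38 and 3.59 CPM in the controls and at 9.63, 10.2, 9.21 and 9.36 CPM after unloading, so that the log2 fold changes were 0.30 and 1.72 and the difference -1.42 (-1.94 to -0.90). Of the other genes with the smallest p, Alox5ap, Lrfn3 and Dap had negative values in WT muscle and values nearer 0 or positive in Notch2-mKO muscle, and Rnmt, Dek, Skp1a and Paip2b had positive values that were larger in WT. The choice of these genes and their values are from the fit without removal of the GC and length trend.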

How the data were processed

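Gastrocnemius RNA was sequenced in 24 libraries. The deposited tables give estimated counts for 36172 RefSeq gene models per the file headers, and the submitters' processing notes name builds mm10 and GRCm38. For the aligner and the counter, no name is given in the sources used here. The same tables hold the authors' log2 values, set to the mean of each table's controls as far as the values show, which were used for an alternative alone. The 8 control columns deposited in 2 tables were identical and were counted once.

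Estimated counts were rounded, filtered with filterByExpr over the 6 groups (13048 genes kept), scaled by TMM and fitted in edgeR 4.0.16 (R 4.3.3) with 1 mean per group over the 24 libraries. Tests were two-sided with Benjamini-Hochberg adjustment over all genes. The fit was tested on simulated data. The common biological coefficient of variation was 20.0%, and counts carry no molecular identifiers, so the floor of 3 counts covers counting error only. GC content and length came from GENCODE M21 transcripts. Quality weights are from limma 3.58.1 (voom), and DESeq2 1.42.0 was an alternative. Other alternatives were scaling, filters, the 8 libraries alone, a replicate block, the GC and length trend, and each library left out.

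Groups came from the labels' genotype and treatment. Genes named were Notch2, Fbxo32, Trim63, Fbxo30, the 15 largest rises and falls, called or leading members of each gene list, and the 10 smallest p-values of the difference between genotypes. The comparison, the lists and their members were chosen with earlier results of these data known. Markers of other cell types were on 12 further lists. Some genes that this rule names are not reported here.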

Additional observations from a re-analysis of the deposited data

Results flagged for a closer look

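In each Notch2-mKO group of 4, the highest or lowest library was compared with the nearest other, and 21 of 230 gene and group pairs examined had a library whose gap took up more of the group's range than Dixon's critical value at 95% allows for 4 samples. Chance alone gives about 1 such pair in 20, and the genes are not independent of each other.

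Unloading replicate 4 stood apart, above the other 3, for Fbxo32 (1234 CPM), Trim63 (822 CPM), Ppp1r15a (111 CPM), Eif4ebp1 (244 CPM) and Psmc3 (431 CPM). Unloading replicate 1 stood above the others for Runx1 (3.97 CPM), Hsp90aa1 (20.2 CPM) and Psmg4 (7.38 CPM), and below them for the matrix proteoglycan genes Fmod (26.4 CPM) and Dcn (145 CPM). Unloading replicate 2 was the highest for Chrnb1 (31.7 CPM) and stood apart for Slc7a8 (8.72 CPM).

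Among the controls, replicate 3 stood above the others for Hsph1 (120.1 CPM), Hspa8 (1868 CPM) and Rangrf (49.2 CPM). Control replicate 4 did so for Actc1 (1081 CPM), Agrn (10.4 CPM) and Hey1 (3.88 CPM), and control replicate 1 for Cul1 (62.2 CPM) and Paip2b (57.7 CPM), while Psmg4 was lowest there (2.64 CPM).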

How the results depend on the processing

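The number of genes called in Notch2-mKO muscle (954) was 1457 with DESeq2 (676 of them lower), 331 in the fit on the 8 libraries (163 higher, 168 lower) and 2 (by limma, from the authors' log2 values: 0 higher, 2 lower). With library totals 220 were lower. With single libraries left out it ran from 411 to 1127, with 189 to 649 higher and 222 to 478 lower. Without unloading replicates 1 and 4 together it was 80 (47 higher, 33 lower). With the replicate number as a block it was 615 (353 higher, 262 lower), and 612 (353 higher, 259 lower) with the GC and length trend removed as well. The deviations of same-numbered control and unloading libraries had correlations of 0.0812, 0.0127, -0.00733 and -0.0483, and control replicate 2 correlated best with unloading replicate 4 (0.112). These values show no pairing by number, but correlations of this size cannot exclude one. The block gave 0 genes for the difference between genotypes. For that difference DESeq2 called 127 genes, limma voom 113, and fits with single libraries left out 0 to 427. The AT-rich minus GC-rich difference of 0.349 was 0.365 with a prior count of 0.5. Of the 2409 values of 115 named genes under alternatives, 2021 kept direction and side of the threshold, 345 lost the call, 9 gained one and 34, all of genes that were not called, changed sign. With single libraries left out, the log2 fold changes ran from -0.37 to 0.0095 for Myh4, -0.43 to 0.12 for Myh7, -0.34 to 0.077 for Hsp90aa1, -0.28 to 0.031 for Hspb1, -0.38 to 0.79 for Trim63, -0.14 to 0.032 for Pdgfra, -0.32 to 0.23 for Heyl, -0.24 to 0.074 for Pecam1 and -0.14 to 0.21 for Myog. Without unloading 1 and 4 together, Myh4 was at 0.027, Myh7 0.14, Trim63 -0.19, Jag1 0.10 and Myog -0.044. With library totals Hsp90aa1 was at 0.078, Hspb1 0.013 and Pdgfra 0.038. On the authors' log2 values Hsp90aa1 was at 0.030, Pdgfra 0.087, Heyl 0.19 and Pecam1 0.058. With voom weights Trim63 was at -0.023, Heyl 0.0026 and Myog -0.048. With the trend removed Dcn was at -0.00091 and Heyl 0.040, and with the block added -0.0105 and 0.075. The cause was not tested for these changes. Depth limits genes near 0.0866 CPM, the level of 3 counts by library total.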
